A study of Mus musculus with 9 samples.

Results

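Serglycin, its cell surface receptor CD44 and 8 further proteoglycans were followed by their transcripts in cultured heart muscle cells. The members were taken by gene symbol: Srgn, Cd44, Vcan, Dcn, Bgn, Lum, Sdc1, Sdc4, Hspg2 and Gpc1. These are 10 of the 55401 genes in the count table. All 10 were found once each, and 9 of them had enough counts for the test across genes. Srgn was the exception and is described by its counts alone.

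RNA-seq libraries were made from primary ventricular myocytes of 1 day old wild-type C57BL/6J mice. There were 3 groups with 3 libraries each. Control cultures stayed in normal oxygen in complete DMEM with 10% FBS. Hypoxia cultures were moved to DMEM without glucose and without serum and kept for 6 h in a sealed chamber with an oxygen absorber (AnaeroPack). In the hypoxia + rSRGN group, recombinant serglycin protein was in the medium during the same period. The dose is not given in the sources used here. Oxygen, glucose and serum were changed together, and against control their effects cannot be told apart, whereas the hypoxic groups differ, by their labels, in the added protein alone. The labels do not say whether the 3 libraries of a group came from separate litters or cultures, so p-values measure the spread between these libraries, which may be technical.

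Proteoglycans are proteins that carry long, negatively charged sugar chains called glycosaminoglycans, most of which are attached to serine residues that are usually followed by glycine. Serglycin is the proteoglycan of secretory granules in blood cells, endothelium and some other cells, and once secreted it can bind CD44, the main receptor for the matrix polysaccharide hyaluronan. Versican (Vcan), decorin (Dcn), biglycan (Bgn) and lumican (Lum) lie in the matrix between cells, perlecan (Hspg2) lies in basement membranes, and syndecan 1 (Sdc1), syndecan 4 (Sdc4) and glypican 1 (Gpc1) sit on the cell surface. In the heart, matrix proteoglycans are made largely by fibroblasts, and each cardiomyocyte is wrapped in a basement membrane.

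The sequence that gives serglycin its name is shown first, since it is where its sugar chains attach. In the mouse Srgn coding sequence (GENCODE release M21, GRCm38), codons 90 to 109 form 10 serine and glycine codon pairs in an unbroken row. The stretch of 60 bases lies in exon 4 of 4 on the minus strand, within coding sequence. Capitals mark the serine codons.
Srgn (chr10:62494998-62495057, minus strand): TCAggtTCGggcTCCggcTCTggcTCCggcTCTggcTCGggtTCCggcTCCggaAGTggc
The 152 codons of Srgn held 6.58 such pairs per 100 codons, against a median of 0.474 over 21581 genes, and only 23 genes had more per 100 codons. Among the other members, Sdc1 held 1.61 and Sdc4 held 1.52 pairs per 100 codons, and the lowest value was 0.565 in Dcn. Cd44, which carries sugar chains in some of its splice forms, held 0.769. These numbers count codons and do not say which serines carry a chain.

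Promoter windows are shown for the receptor and for the members with the largest rise and the largest fall in hypoxia, as the hypoxic groups differ from control in oxygen. The 250 bases before the start site came from RefSeq (GRCm38.p6), which held windows for 7 of the 10 members and none for Dcn, Lum and Gpc1. Capitals mark the core of a hypoxia response element, ACGTG or GCGTG, on either strand.
Cd44 (chr2:102901666-102901915, minus strand): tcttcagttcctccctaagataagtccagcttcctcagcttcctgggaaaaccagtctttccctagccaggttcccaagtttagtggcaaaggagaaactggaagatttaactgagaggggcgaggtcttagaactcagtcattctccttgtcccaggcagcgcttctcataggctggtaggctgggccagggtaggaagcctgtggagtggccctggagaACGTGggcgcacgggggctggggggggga
Bgn (chrX:73483351-73483600, plus strand): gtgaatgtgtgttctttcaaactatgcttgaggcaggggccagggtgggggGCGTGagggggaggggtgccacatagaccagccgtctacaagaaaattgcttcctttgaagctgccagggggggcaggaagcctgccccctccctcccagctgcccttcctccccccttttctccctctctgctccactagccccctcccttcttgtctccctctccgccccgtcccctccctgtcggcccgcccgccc
Vcan (chr13:89742513-89742762, minus strand): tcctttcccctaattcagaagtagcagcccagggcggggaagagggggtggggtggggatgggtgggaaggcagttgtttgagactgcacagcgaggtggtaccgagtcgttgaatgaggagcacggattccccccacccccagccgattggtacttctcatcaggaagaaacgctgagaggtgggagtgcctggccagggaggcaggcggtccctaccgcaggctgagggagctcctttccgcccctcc
The Cd44 window held 1 core, which begins 29 bases before the start, the Bgn window held 1 that begins 199 bases before it, and the Vcan window held none. As Srgn has 2 start sites in RefSeq, there were 8 member windows in all. Of these, 6 held at least 1 core, where 38.6% of all 32851 windows held one. The GC box GGGCGG was found in 5 of the 8 windows and in 32.7% of all windows, with 3 matches in Bgn and 2 in Vcan. The AP-1 motif TGANTCA was found in 0 of the 8 windows and in 6.75% of all windows, and the TATA box TATAAA in 1 of the 8, the first Srgn start, and in 12.4% of all. The 2 Srgn windows held 49.6% and 42.8% G and C, and the other member windows 56.4% to 70.0%. The median over all windows was 52.4%, and the counts of matches were not adjusted for this. Matches were sought on both strands, and they describe letters only. The Sdc4 window belongs to a start 699 bases inside the gene start of the annotation used for counting, and the second Srgn window, the one of its 2 that held a core, to a start 19694 bases inside it.

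The libraries held between 16583985 and 22781557 counts, with medians of 22472430 in control, 17434604 in hypoxia and 18772474 in hypoxia + rSRGN. Of the 55401 genes, 16762 were tested. Levels are given as CPM, which are counts scaled to a common library size with TMM factors. A gene was called when its Benjamini-Hochberg adjusted p in the quasi-likelihood test of edgeR, taken over all tested genes, was below 0.05 and its fold change was at least 1.5. Markers of cardiomyocytes were present in every group, and their summed level was 40910 to 50730 CPM in control, 3484 to 5268 CPM in hypoxia and 6651 to 7056 CPM in hypoxia + rSRGN, with 10 of 10 called lower in hypoxia. Fibroblast markers summed to 8628 to 10250, 17100 to 19900 and 18990 to 19610 CPM in the same order, with 7 of 10 called higher in hypoxia. Transcripts of both cell types were thus measured in every library.

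Serglycin itself was hardly transcribed. The 3 control libraries held 5, 14 and 10 Srgn counts, the 3 hypoxia libraries 6, 6 and 6, and the 3 hypoxia + rSRGN libraries 3, 19 and 6. The highest and the lowest library were both in hypoxia + rSRGN, and that group overlapped both others. Over the 3 libraries of a group, Srgn stood at 0.445 CPM in control (exact 95% interval 0.298 to 0.64), 0.338 CPM in hypoxia (0.201 to 0.535) and 0.496 CPM in hypoxia + rSRGN (0.329 to 0.717). These intervals cover counting error only.

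The ratio of Srgn in hypoxia to control was 0.76 (exact 95% interval 0.397 to 1.41), that of hypoxia + rSRGN to hypoxia was 1.47 (0.782 to 2.81) and that of hypoxia + rSRGN to control was 1.11 (0.638 to 1.94). These also cover counting error only, and the 3, 19 and 6 counts of hypoxia + rSRGN were spread beyond it. Without its second library, which held 19 of the 28 counts, those ratios were 0.745 to hypoxia and 0.566 to control, so that 1 library set their direction. Without the first control library the ratio of hypoxia + rSRGN to control was 0.885. A difference of Srgn between groups was not detectable at this depth. Of the 32730 genes with at least 1 count, 16526 had a higher mean CPM than Srgn. The protein added to the medium leaves no transcript, so Srgn counts do not check the treatment. When the filter was relaxed to at least 1 count in all libraries together, the edgeR adjusted p of Srgn was 0.639, 0.754 and 1.0 in the same order of comparisons.

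Genes of the cells that store serglycin in granules stood at low levels. In any library, neutrophil markers summed to at most 0.626 CPM, lymphocyte markers to 1.33 CPM, mast cell markers to 12.6 CPM and platelet and megakaryocyte markers to 11.9 CPM. Of 12 granule proteins that are packed with serglycin in mast cells, lymphocytes, neutrophils and platelets, 3 were tested. Mcpt4, a mast cell chymase, stood between 0.452 and 1.62 CPM in the control and hypoxia libraries, and Pf4, a platelet chemokine, between 1.11 and 2.72 CPM. The mast cell protease Cpa3 had 3 counts in the control group and 41 in the hypoxia group, a ratio of 16.7 (exact 95% interval 5.34 to 84.4, counting error only). All 3 were called higher in hypoxia, but Cpa3 and Mcpt4 met the filter on low counts only through the hypoxic groups, so they had to be higher there to be tested and nothing is read from their calls. Pf4 met the filter in every group and was 2.00-fold higher (edgeR adjusted p = 0.00411). Between hypoxia + rSRGN and hypoxia, 0 of the 3 were called by edgeR. The lymphocyte markers Cd3g and Gzma, the neutrophil marker Mpo and the mast cell markers Fcer1a and Tpsb2 had no count in any library. Macrophages, which also make serglycin, had a summed marker level of 232.4 to 248.5 CPM in control, 24.7 to 27.1 CPM in hypoxia and 29.1 to 34.7 CPM in hypoxia + rSRGN, with 9 of 9 tested markers called lower in hypoxia. Of these, 6 (Adgre1, C1qa, C1qb, C1qc, Mrc1 and Ptprc) met the filter only through control, where they are high, so the count of 9 is a description. The part of these cells in the Srgn counts was not tested.

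**Figure D1:**
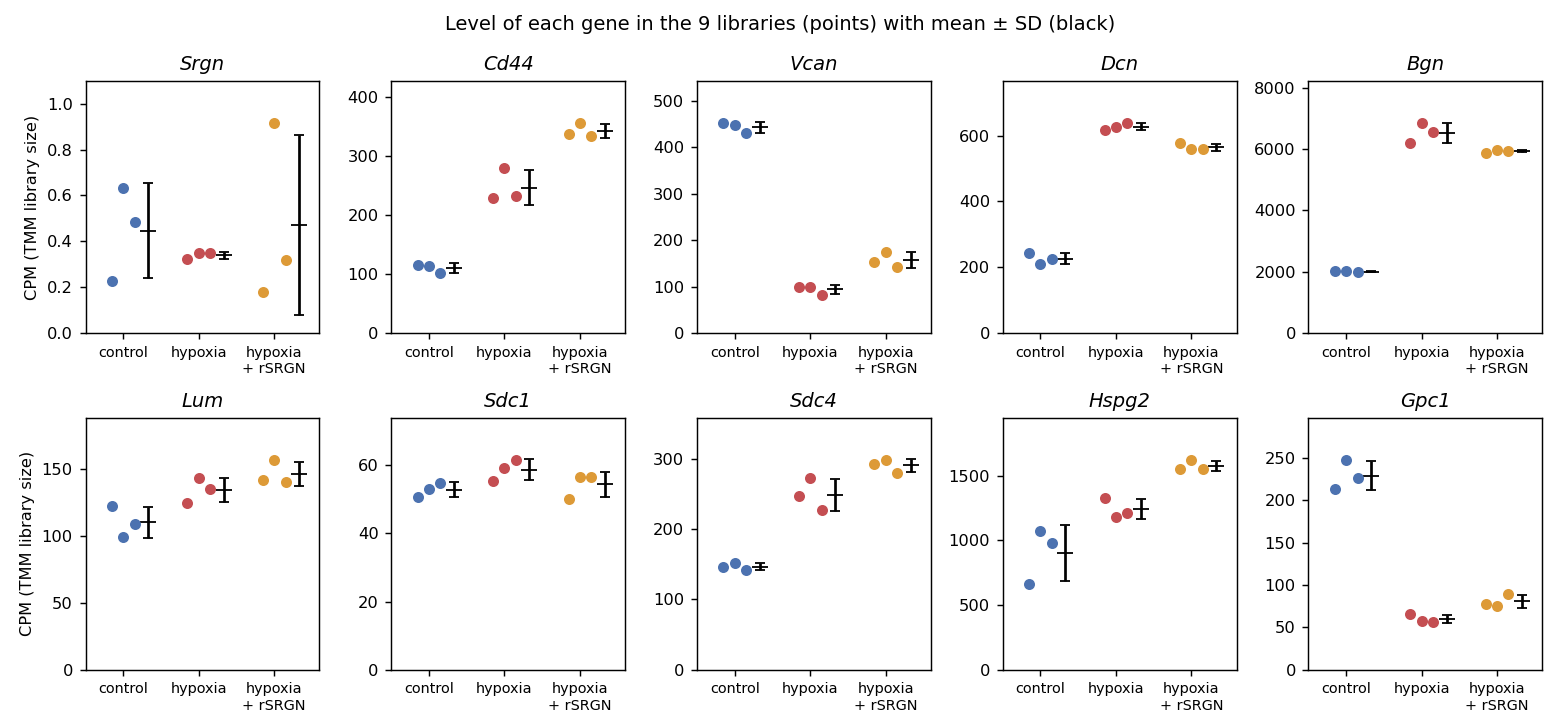
Level of each of the 10 genes in CPM (TMM library size, axes from 0), with a point for each library and the mean ± SD over 3 libraries in black. Cd44 stepped from 101.0 to 115.6 CPM in control to 228.4 to 280.1 CPM in hypoxia and 333.9 to 356.1 CPM in hypoxia + rSRGN, while Srgn stayed under 1 CPM in all 9 libraries.

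Hypoxia against control asks how these genes stand after 6 h without oxygen, glucose and serum. Biglycan, decorin, CD44 and syndecan 4 rose, versican and glypican 1 fell, and lumican, syndecan 1 and perlecan were not called. This makes 4 of 9 tested members called higher, where 26.4% of all tested genes were called higher, and 2 called lower, where 25.1% were. In either direction, 51.6% of all tested genes were called, so being called was in itself common in this comparison. The median log2 fold change was 0.46 over the 9 members and 0.05 over all tested genes. The libraries of the groups did not overlap for any of the 9, with 7 higher and 2 lower in hypoxia, and 37.7% and 35.3% of all tested genes did not overlap in those directions. These are bulk cultures, in which fewer cells of a type and less RNA per cell cannot be told apart.

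CD44, the receptor, stood at 115.6, 114.2 and 101.0 CPM in the control libraries and at 228.4, 280.1 and 231.8 CPM in hypoxia. All 3 hypoxia libraries lay above every control library. The rise was 2.24-fold, a log2 fold change of 1.16 ± 0.08 (SE, n = 3 per group, edgeR adjusted p = 3.02e-11). The Cd44 gene lies at chr2:102811141-102901665 on the minus strand (mm10), and its counts were summed over 6776 exon bases, so splice forms were not separated.

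Versican, the large hyaluronan-binding proteoglycan of the early heart matrix, stood at 451.8, 447.0 and 429.7 CPM in control and at 99.0, 99.7 and 82.3 CPM in hypoxia. It fell 4.73-fold, a log2 fold change of -2.24 ± 0.09 (SE, n = 3 per group, edgeR adjusted p = 1.02e-15), the largest fall among the members. Glypican 1, a heparan sulfate proteoglycan held to the membrane by a lipid anchor, stood at 213.4, 247.7 and 225.6 CPM in control and at 65.9, 57.7 and 56.6 CPM in hypoxia. Its fall was 3.81-fold (log2 fold change -1.93 ± 0.09, SE, n = 3 per group, edgeR adjusted p = 8.11e-15). For both genes every hypoxia library lay far below every control library. Gpc1 shares 977 exon bases with Ankmy1 on the opposite strand, but Ankmy1 had 45 counts in the 9 libraries together against at least 977 Gpc1 counts in each.

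The small leucine-rich proteoglycans, which bind collagen fibrils, did not move alike. Biglycan stood at 2024, 2023 and 1975 CPM in control and at 6199, 6851 and 6548 CPM in hypoxia, a 3.26-fold rise (log2 fold change 1.70 ± 0.08, SE, n = 3 per group, edgeR adjusted p = 6.23e-15). Decorin stood at 243.3, 209.7 and 225.3 CPM in control and at 618.4, 624.9 and 638.3 CPM in hypoxia, a 2.77-fold rise (log2 fold change 1.47 ± 0.07, SE, n = 3 per group, edgeR adjusted p = 4.02e-14). These were the largest rises among the members, and in neither gene did the groups come near each other. Lumican, which regulates fibril spacing, stood at 121.9, 99.1 and 109.0 CPM in control and at 124.8, 143.0 and 134.6 CPM in hypoxia. The lowest hypoxia library was barely above the highest control library, and with 1.22-fold (log2 fold change 0.29 ± 0.08, SE, n = 3 per group, edgeR adjusted p = 0.00383) Lum was below the fold limit.

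Syndecan 4, a membrane proteoglycan of focal adhesions, stood at 146.2, 151.6 and 141.3 CPM in control and at 246.5, 272.6 and 226.6 CPM in hypoxia. It rose 1.70-fold (log2 fold change 0.76 ± 0.08, SE, n = 3 per group, edgeR adjusted p = 6.17e-09), with no overlap between the groups. Syndecan 1, its epithelial relative, stood at 50.6, 53.2 and 54.9 CPM in control and at 55.3, 59.3 and 61.6 CPM in hypoxia, a log2 fold change of 0.15 with a 95% interval of -0.01 to 0.32 (edgeR adjusted p = 0.095). The interval of Sdc4, 0.61 to 0.92 on the log2 scale, lay wholly above that of Sdc1; the difference between the genes was not itself tested.

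Perlecan, the large heparan sulfate proteoglycan of basement membranes, stood at 661.7, 1073 and 979.0 CPM in control and at 1329, 1182 and 1213 CPM in hypoxia. The first control library was far below the other two, and the groups did not overlap. The difference of 1.37-fold (log2 fold change 0.46 ± 0.12, SE, n = 3 per group, edgeR adjusted p = 0.00127) was below the fold limit. Leaving out the first control library moved the log2 fold change of Hspg2 to 0.26, and leaving out the other libraries gave up to 0.58, without a call in any of these fits.

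Markers of several cell types differed between the same libraries. The fibroblast markers Col1a1 and Col1a2, collagen chains, had mean levels of 3590 and 2450 CPM in control and 8110 and 4540 CPM in hypoxia. The 3 fibroblast markers not called were Pdgfra, with means of 75.6 and 86.1 CPM, Ddr2 and Fap. Epicardial and mesothelial markers, with 5 of 5 called higher in hypoxia, summed to 184.7 to 210.5 CPM in control and 787.7 to 861.8 CPM in hypoxia. Endothelial markers, with 5 of 8 called lower, summed to 78.6 to 109.0 CPM and 57.6 to 74.0 CPM. Pericyte and smooth muscle markers summed to 565.5 to 616.0 CPM and 337.9 to 362.1 CPM, but 1 of 6 was called higher and 1 lower. The lower sum came from Abcc9, with means of 381 and 25 CPM, while Pdgfrb, the marker called higher, had means of 176 and 280 CPM. The part of cell type in the members' changes was not tested.

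**Figure D2:**
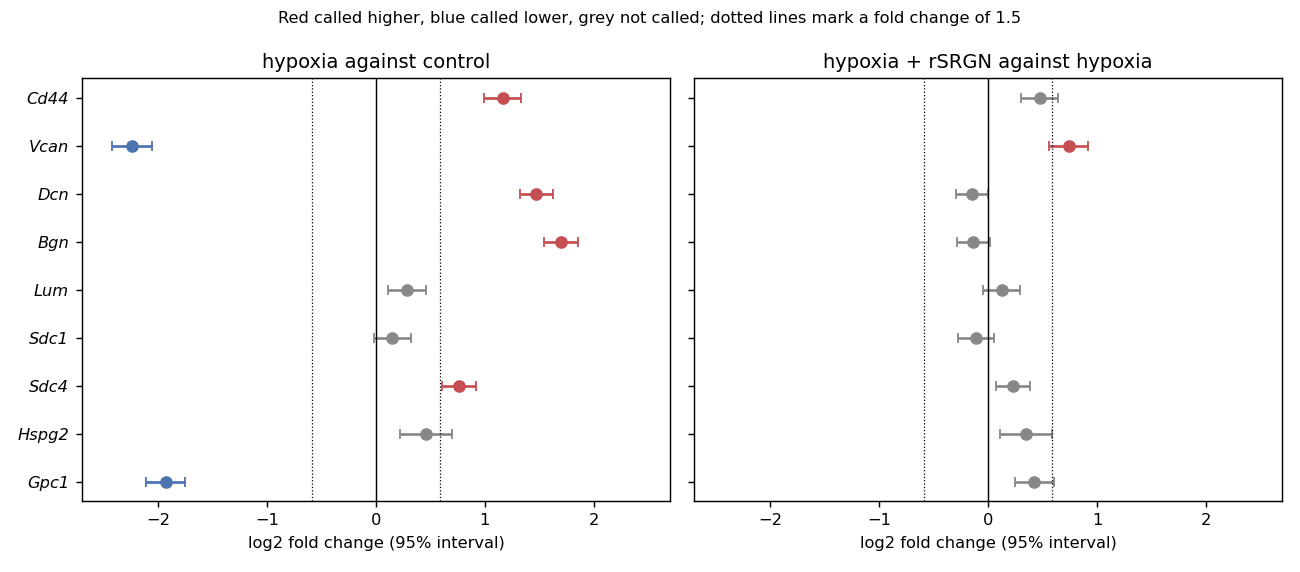
Log2 fold change of the 9 tested genes with 95% intervals from edgeR, in hypoxia against control (left) and hypoxia + rSRGN against hypoxia (right). Red points were called higher, blue points lower and grey points not called, and dotted lines mark a fold change of 1.5. On the left Vcan at -2.24 and Gpc1 at -1.93 stand apart from Bgn at 1.70, and on the right Vcan at 0.74 is the called gene.

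Hypoxia + rSRGN against hypoxia asks what the added protein changed. Versican rose, and 8 of the 9 tested members were not called. The comparison called 2.27% of all tested genes higher, 0.859% lower and 3.13% in either direction. These shares moved with single libraries. Without hypoxia replicate 3 the called genes numbered 321 of 17445 in place of 525 of 16762. They numbered 354 of 17278 without hypoxia + rSRGN replicate 2 and 699 of 17466 without hypoxia replicate 2. In each of these fits 1 member was called. By adjusted p alone, with no fold limit, 5 of the 9 members passed, all of them higher with rSRGN (Vcan, Cd44, Gpc1, Hspg2 and Sdc4), where 16.6% of all tested genes passed and 10.5% passed higher. The median log2 fold change was 0.23 over the 9 members and -0.03 over all tested genes. The comparisons with control use the same hypoxia or hypoxia + rSRGN libraries as this one, so their values are not independent of it.

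Versican stood at 99.0, 99.7 and 82.3 CPM in hypoxia and at 152.6, 175.4 and 141.5 CPM in hypoxia + rSRGN. Every library with rSRGN lay above every library without it, and all of them lay below the lowest control library at 429.7 CPM. The rise was 1.67-fold, a log2 fold change of 0.74 ± 0.09 (SE, n = 3 per group, edgeR adjusted p = 3.85e-05). Against control, Vcan in hypoxia + rSRGN was still called lower, 2.83-fold (edgeR adjusted p = 7.72e-13).

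CD44 stood at 228.4, 280.1 and 231.8 CPM in hypoxia and at 337.5, 356.1 and 333.9 CPM in hypoxia + rSRGN. The groups did not overlap. The difference was 1.39-fold (log2 fold change 0.47 ± 0.08, 95% interval 0.30 to 0.64, edgeR adjusted p = 0.000549), so Cd44 passed the adjusted p but not the fold limit and was not called. Against control, Cd44 in hypoxia + rSRGN was 3.11-fold higher (edgeR adjusted p = 1.16e-13). The order of the 3 groups was therefore control, hypoxia and hypoxia + rSRGN for Cd44, and hypoxia, hypoxia + rSRGN and control for Vcan.

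Among the heparan sulfate proteoglycans, glypican 1 stood at 65.9, 57.7 and 56.6 CPM in hypoxia and at 77.7, 74.9 and 88.9 CPM in hypoxia + rSRGN, 1.34-fold higher (edgeR adjusted p = 0.00196). Perlecan stood at 1329, 1182 and 1213 CPM and at 1550, 1624 and 1556 CPM, 1.27-fold higher (edgeR adjusted p = 0.0424). Syndecan 4 stood at 246.5, 272.6 and 226.6 CPM and at 292.9, 298.7 and 280.1 CPM, 1.17-fold higher (edgeR adjusted p = 0.0409). None of the 3 overlapped between the groups and none reached the fold limit. For Sdc4 and Hspg2 the adjusted p was near its threshold, and it ranged up to 0.193 and 0.14 over the alternative settings.

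For decorin and biglycan the 3 libraries with rSRGN lay below the 3 without, at 558.4 to 577.3 CPM and 5886 to 5970 CPM. The log2 fold changes were -0.15 for Dcn (95% interval -0.30 to -0.004, edgeR adjusted p = 0.156) and -0.14 for Bgn (-0.29 to 0.01, edgeR adjusted p = 0.212). Lumican had 139.9 to 156.8 CPM with rSRGN and a log2 fold change of 0.12 (95% interval -0.05 to 0.29), and syndecan 1 had 50.2 to 56.5 CPM and -0.11 (-0.28 to 0.06). Lum and Sdc1 overlapped between the groups. In all, 7 of 9 tested members did not overlap, 5 higher and 2 lower with rSRGN, and 16.5% and 15.5% of all tested genes did not overlap in those directions. The intervals of these 4 genes reach from -0.30 to 0.29 on the log2 scale, so equal levels are not shown. Cardiomyocyte markers were also higher with rSRGN, with 8 of 10 called and a summed level of 6651 to 7056 CPM against 3484 to 5268 CPM, while 1 of 10 fibroblast markers was called, lower. Pericyte and smooth muscle markers summed to 420.1 to 460.0 CPM with rSRGN against 337.9 to 362.1 CPM, with 2 of 6 called higher (Abcc9 and Rgs5). Of 8 endothelial markers, 1 was called higher (Kdr, 1.91-fold), and their sums overlapped, at 59.1 to 71.6 CPM with rSRGN and 57.6 to 74.0 CPM without. The part of these cell types in the changes of Vcan and Cd44 was not tested.

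Hypoxia + rSRGN against control called 5 of 9 members higher (Cd44, Dcn, Bgn, Sdc4 and Hspg2) and 2 lower (Vcan and Gpc1), where 24.1% and 24.7% of all tested genes were called in those directions and 48.8% in either. Biglycan was 2.96-fold higher, decorin 2.50-fold, syndecan 4 1.99-fold and perlecan 1.74-fold, the last with an edgeR adjusted p of 2.26e-06. Glypican 1 was 2.84-fold lower. Lumican at 1.33-fold (edgeR adjusted p = 0.000139) and syndecan 1 at 1.03-fold (edgeR adjusted p = 0.658) were not called. The libraries did not overlap for 6 members that were higher and 2 that were lower, and 36.6% of all tested genes did not overlap in each direction. Perlecan was called here and not in hypoxia against control, but its difference between the hypoxic groups was itself below the fold limit.

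Between genes, levels were compared as CPM per kb of exon. In control, biglycan was highest at 329.1 ± 4.56 CPM per kb (SD, n = 3), followed by perlecan at 61.4 ± 14.6, syndecan 4 at 57.5 ± 2.04, lumican at 44.9 ± 4.68, glypican 1 at 44.4 ± 3.37, decorin at 38.7 ± 2.88, versican at 30.6 ± 0.80, CD44 at 16.3 ± 1.18, syndecan 1 at 13.9 ± 0.58 and serglycin at 0.203 ± 0.094 CPM per kb. Perlecan and syndecan 4 overlapped between libraries, as did lumican, glypican 1 and decorin in turn, so their order is not set. In hypoxia, biglycan stood at 1071 ± 53.6 CPM per kb, decorin was next at 107.4 ± 1.73, and versican was ninth at 6.48 ± 0.68. Decorin, syndecan 4 and perlecan overlapped there between neighbours. With rSRGN, CD44 reached 50.6 ± 1.76 CPM per kb and was sixth, as in hypoxia, whereas in control it was eighth.

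The sum over the 10 genes was 628.6 to 650.4 CPM per kb in control, 1428 to 1551 in hypoxia and 1431 to 1461 in hypoxia + rSRGN. Biglycan made up 51.7 ± 0.97% of that sum in control (SD, n = 3), 72.1 ± 0.83% in hypoxia and 67.5 ± 0.48% in hypoxia + rSRGN. Versican made up 4.81 ± 0.14%, 0.436 ± 0.047% and 0.75 ± 0.075%, and glypican 1 made up 6.96 ± 0.40%, 0.786 ± 0.094% and 1.08 ± 0.11%. The share of CD44 was 2.55 ± 0.18% in control, 2.45 ± 0.19% in hypoxia and 3.50 ± 0.085% in hypoxia + rSRGN. In hypoxia its level and the sum both rose. Shares are a description and were not tested.

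**Figure D3:**
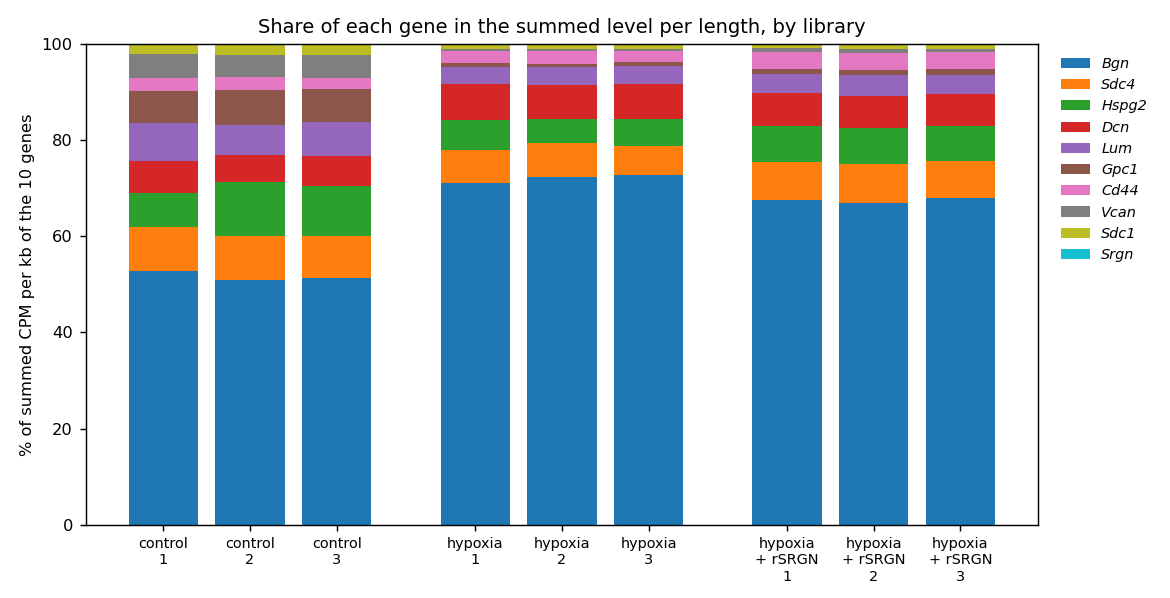
Share of each of the 10 genes in their summed level per length (% of CPM per kb, stacked to 100%) in each of the 9 libraries. Biglycan widens from 51.0 to 52.8% in control to 71.2 to 72.7% in hypoxia, and versican and glypican 1 shrink to under 1% each.

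Ratios within a library do not depend on its depth. Biglycan stood at 10.6 to 10.9 times versican per length in control, 148.5 to 188.7 times in hypoxia and 80.7 to 99.7 times in hypoxia + rSRGN, with no overlap between the groups. Decorin was below lumican in control, at 0.837 to 0.887 of its level, and above it in hypoxia at 1.83 to 2.08 and in hypoxia + rSRGN at 1.497 to 1.71. Syndecan 4 stood at 1.24 to 1.39 times glypican 1 in control, 7.58 to 9.58 times in hypoxia and 6.38 to 8.08 times in hypoxia + rSRGN, and the hypoxic groups overlapped.

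Patterns over the 9 libraries were set side by side by the root mean square difference of log2 CPM, each gene centred on its own mean. The nearest pair of members was decorin and biglycan at 0.13, followed by lumican and syndecan 1 at 0.19 and versican and glypican 1 at 0.22, and the farthest was versican and biglycan at 1.70. Cd44 was nearest to Sdc4 among the members, at 0.27. Among 14248 other tested genes of at least 1 CPM, the nearest to Cd44 were B4galt5, a galactosyltransferase, at 0.06 and Hmox1, heme oxygenase 1, at 0.08. Hmox1 had mean levels of 135, 317 and 423 CPM in control, hypoxia and hypoxia + rSRGN. The genes most like Srgn were Enpp6, Cfap43 and Gm6254, at 0.36 each. With 3 to 19 Srgn counts per library, counting error enters these distances, so they are not set against those of Cd44. The measure is a description with no test.

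The other genes of proteoglycan biology were described in 11 lists with 130 genes, of which 106 were tested. In hypoxia against control, 34 (32.1%) were called higher and 26 (24.5%) lower, beside 26.4% and 25.1% of all tested genes, and the median log2 fold change was 0.25 beside 0.05. Between hypoxia + rSRGN and hypoxia, 3 (2.83%) were called higher and 2 (1.89%) lower, beside 2.27% and 0.859% of all tested genes. The filter asked for 0.533 CPM, which is 10 counts in the median library, in at least 3 of the 9 libraries, whatever their group. Of the 34 genes called higher in hypoxia, 5 (Cpa3, Hapln4, Hyal3, Mcpt4 and Prg4) reached that in fewer than 3 control libraries, and of the 26 called lower, Gpc2 reached it in no hypoxia library. Such genes were tested only through the group where they are high. They made up 28.3% of the genes called higher and 18.3% of those called lower over all tested genes, and 0 of the 6 called members. The counts and medians of the lists are therefore descriptions, and up to 3 called genes of each are named.

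Enzymes that prepare the sugars and build the linkage to the protein included 6 of 12 called higher in hypoxia and 1 called lower, with a median log2 fold change of 0.54. Ugdh, which makes UDP-glucuronic acid, rose 2.31-fold from 85.6 to 99.4 CPM in control to 199.7 to 224.0 CPM (edgeR adjusted p = 2.6e-12). Uxs1, which turns that product into UDP-xylose, rose 1.84-fold (edgeR adjusted p = 4.9e-09), and Fam20b, the kinase that phosphorylates the linkage xylose, fell 2.08-fold (edgeR adjusted p = 3.1e-11). Between hypoxia + rSRGN and hypoxia, 0 of the 12 were called by edgeR.

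Enzymes of heparan sulfate, the chain carried by perlecan, glypicans and syndecans, were called in both directions in hypoxia, 6 of 18 higher and 7 lower. The 3 largest changes were falls: Extl1 (6.20-fold, edgeR adjusted p = 1e-11) and Extl3 (4.82-fold, edgeR adjusted p = 1.98e-16), which add N-acetylglucosamine to the chain, and Ndst1 (2.26-fold, edgeR adjusted p = 9.14e-12), which sulfates it. Extl3 went from 221.2 to 248.9 CPM in control to 46.1 to 53.3 CPM in hypoxia. For chondroitin and dermatan sulfate, the chains of versican, decorin and biglycan, 4 of 15 enzymes were called higher and 2 lower. Chpf, a chondroitin polymerizing factor, rose 2.12-fold (edgeR adjusted p = 1.44e-11) and Chst7, a sulfotransferase, 2.00-fold (edgeR adjusted p = 2.93e-07), while Chst15, which adds a further sulfate to the chain, fell 2.06-fold (edgeR adjusted p = 0.000802). Chst12, a 4-O-sulfotransferase, was the 1 enzyme of either list called with rSRGN, falling 2.07-fold from 14.4 to 19.9 CPM to 7.03 to 9.40 CPM (edgeR adjusted p = 5.96e-05). Chst11, a sulfotransferase of the same list, went the other way and was just under the fold limit. Its log2 fold change was 0.585 (95% interval 0.223 to 0.947, edgeR adjusted p = 0.0246).

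Hyaluronan, the ligand that CD44 and versican share, is made by the synthases Has1, Has2 and Has3. By mean CPM, Has2 was the highest of these in each group, with 6.46 CPM in control, 14.9 in hypoxia and 19.2 in hypoxia + rSRGN. Of 13 tested genes of its synthesis, breakdown and binding, 5 were called higher, Hyal3 among them only through the hypoxic groups, and 4 lower in hypoxia. Has1 stood at 0.966 to 1.08 CPM in control, 6.07 to 8.55 CPM in hypoxia and 11.7 to 12.4 CPM in hypoxia + rSRGN. It rose 6.61-fold in hypoxia (edgeR adjusted p = 9.83e-11) and a further 1.74-fold with rSRGN (edgeR adjusted p = 0.00194). Has3 fell 3.96-fold from 3.24 to 3.96 CPM (edgeR adjusted p = 3.79e-06), and Hyal2, a hyaluronidase, fell 4.54-fold from 30.7 to 33.5 CPM (edgeR adjusted p = 4.47e-12). Has1 was the 1 gene of this list called with rSRGN.

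Of 9 tested CD44 linkers, sheddases and splicing regulators, 1 was called higher and 3 lower in hypoxia, with a median log2 fold change of -0.07. Mmp14, a membrane protease that can shed CD44, rose 2.43-fold (edgeR adjusted p = 2.11e-11). Nf2, the linker protein merlin, fell 2.16-fold (edgeR adjusted p = 2.8e-11), and Spp1, osteopontin, another CD44 ligand, fell 1.68-fold (edgeR adjusted p = 4.65e-08). With rSRGN, 0 of the 9 were called by edgeR. Among 6 proteases that cut versican, 2 were called higher and 2 lower in hypoxia: Adamts15 fell 12.2-fold, from 17.6 to 18.5 CPM to 1.21 to 1.72 CPM (edgeR adjusted p = 4.99e-13), Adamts1 rose 1.87-fold (edgeR adjusted p = 1.79e-09), and Adamts20 rose 2.02-fold (edgeR adjusted p = 0.00254) and was called 1.83-fold lower with rSRGN (edgeR adjusted p = 0.0341). That last call of Adamts20 was lost when any of 4 libraries was left out (hypoxia replicates 1 and 3, hypoxia + rSRGN replicates 1 and 2), with an edgeR adjusted p of up to 0.15.

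The relatives of the members also moved both ways in hypoxia. Aggrecan (Acan), a versican relative, fell 3.57-fold (edgeR adjusted p = 1.77e-08) from 27.2 to 49.7 CPM to 7.88 to 14.97 CPM, and like versican it was called higher with rSRGN, 2.06-fold (edgeR adjusted p = 0.00115), with a mean of 22.6 CPM. Hapln4, a link protein, had 0.135 to 0.452 CPM in control, from 16 counts in the group, and 0.811 to 1.68 CPM in hypoxia, and it met the filter only through the hypoxic groups. Podocan (Podn) fell 4.70-fold (edgeR adjusted p = 3.92e-13) and fibromodulin (Fmod) rose 1.88-fold (edgeR adjusted p = 1.29e-10), so 1 of 10 other small leucine-rich proteoglycans was called higher and 2 lower, the other being Ogn at 1.51-fold. Glypican 3 rose 2.76-fold (edgeR adjusted p = 2.47e-13) where glypican 1 fell, and the other called genes among the 6 syndecans and glypicans were Sdc3 (1.504-fold higher) and Gpc2, which had 0.764 to 1.04 CPM in control and 0.322 to 0.405 CPM in hypoxia and met the filter only through control.

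Of 9 further secreted or membrane proteoglycans, 3 were called higher, 1 of them, Prg4, having met the filter only through the hypoxic groups, and 3 lower in hypoxia. Spock2, a testican, fell 6.81-fold from 18.7 to 23.9 CPM to 2.78 to 3.44 CPM (edgeR adjusted p = 1.1e-12) and was called 1.54-fold higher with rSRGN (edgeR adjusted p = 0.0242), a call lost in 5 of the alternative settings. Tgfbr3, betaglycan, a co-receptor of TGF-beta, fell 5.39-fold (edgeR adjusted p = 2.69e-15), and Prg4, lubricin, had 0.193 to 0.542 CPM in control, from 28 counts in the group, and 1.67 to 2.43 CPM in hypoxia. The calls of Gpc2, Sdc3, Ogn and Mcpt4 in hypoxia were also lost in 4 or more of the alternative settings. Chst15, Fam20b, Has3, Prg4 and Sdc3 share exon bases with a gene on the opposite strand, which counting without strand cannot separate, and Gpc2, Spp1, Tgfbr3 and Ugdh with a gene on the same strand, and their values are uncertain to that extent.

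**Figure D4:**
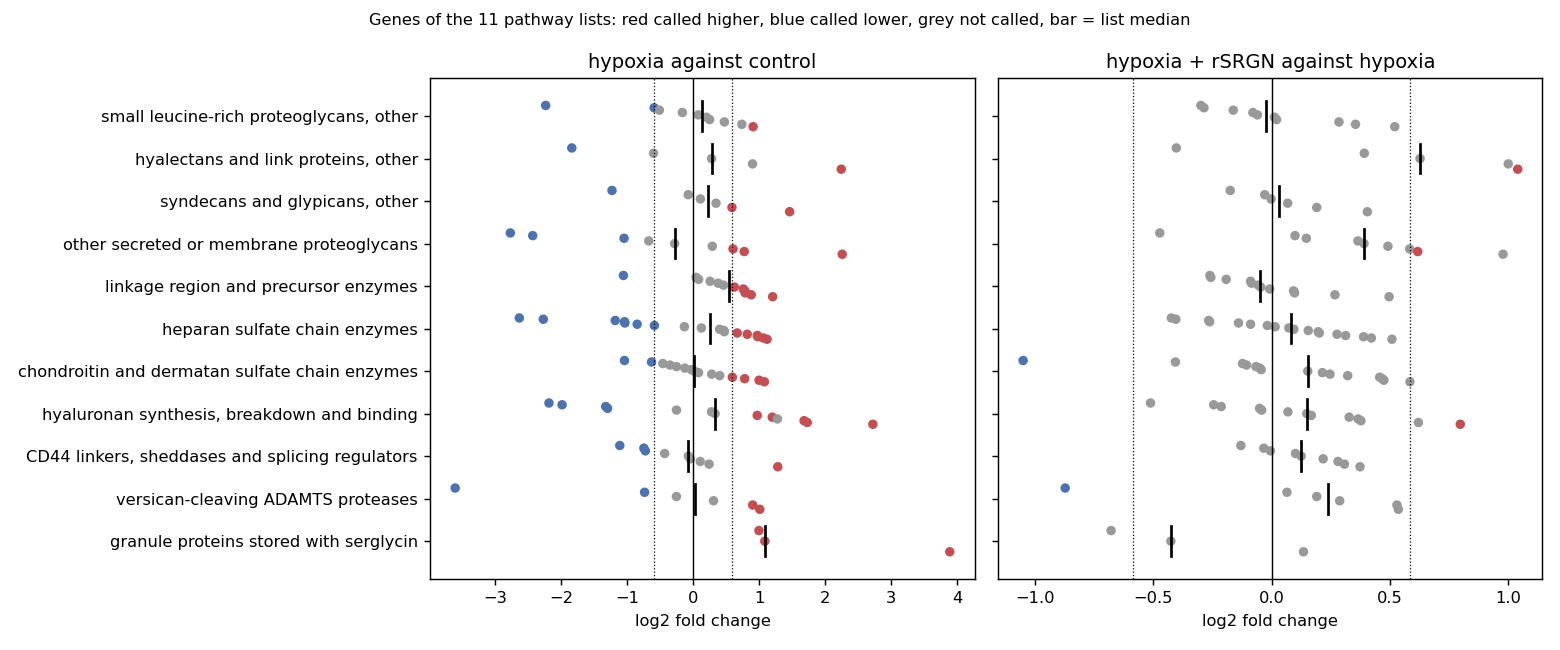
Log2 fold change of each tested gene of the 11 lists (points) with the list median (bar), in hypoxia against control (left) and hypoxia + rSRGN against hypoxia (right). Red points were called higher, blue points lower and grey points not called, and the left panel has 34 red and 26 blue genes against 3 and 2 on the right. Of the left panel's genes, 5 red ones met the filter on low counts only through the hypoxic groups and 1 blue one only through control.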

How the data were processed

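The authors deposited whole-number counts per gene for 9 libraries, without normalization, beside each gene's length in exon bases. Per the file headers, counts came from featureCounts 2.0.1 in paired-end mode over exons of GENCODE mouse release M25 with no strand option. HISAT2 and mm10 are named in the submitters' processing notes. All count columns were used, and 0 were left unused. Groups and replicate numbers came from the sample titles.

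Differences were tested with edgeR 4.0.16 (R 4.3.3), using filterByExpr by group, TMM, 1 mean per group over all 9 libraries and the quasi-likelihood F test. Benjamini-Hochberg adjustment ran over 16762 genes. Calls needed an adjusted p under 0.05 together with a 1.5-fold difference or more. Levels between genes are CPM divided by the gene length in kb. Intervals for Srgn are exact at 95%, from summed counts. The fitting step was tested on simulated data. No 2 replicates agreed within sampling noise.

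The members and the gene lists were chosen with earlier results of these data known. All 10 members are named. From each list, up to 3 called genes with the largest change are named for hypoxia against control, and likewise for the effect of rSRGN in hypoxia. Has2, Hyal3 and Chst11 are named beside these. Also named are the 3 genes most like Cd44 and Srgn by root mean square difference of log2 CPM (prior count 2, at least 1 CPM), of which 1 is not reported here. Tmem2 was matched to the table as Cemip2. Lists got no test of their own.

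Deviations of same-numbered libraries from their group means correlated between -0.037 and 0.021 over 9 pairs. Those of differently numbered libraries correlated between -0.048 and 0.046. No pairing by number was seen, and with 3 libraries per group a weak one could be missed. Alternatives were DESeq2 1.42.0, RLE scaling, library size alone, TMM without mitochondrial and cardiomyocyte genes, filters of at least 1 count in all or 10 counts in every library, libraries thinned to equal totals, only the groups compared, a replicate block, no fold limit, and each library left out in turn. For the genes named from lists, and for leaving out libraries in the Srgn ratios, these were added after the values had been seen.

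Promoter windows are RefSeq sequence (GRCm38.p6), and codons are from the longest coding sequence of each gene in GENCODE release M21 (GRCm38). Figures were drawn with matplotlib 3.10.9.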

Additional observations from a re-analysis of the deposited data

How the results depend on the processing

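Of 486 values that the alternatives gave for the 9 tested members, 485 kept their direction and their call. The adjusted p alone crossed 0.05 in 14 of them, for Lum (up to 0.0593) and Sdc1 (down to 0.0162) in hypoxia and for Sdc4 and Hspg2 with rSRGN. The exception was Sdc1 in hypoxia + rSRGN against control, 0.04 on the log2 scale, which became -0.001 with a filter of at least 1 count. The members called numbered 6 for hypoxia against control, 1 for rSRGN in hypoxia and 7 for hypoxia + rSRGN against control under every alternative but that without a fold limit, which gave 8, 5 and 8. Hypoxia + rSRGN against hypoxia called 525 genes in all, 2790 without a fold limit and 321 without hypoxia replicate 3, and leaving out each library gave 321 to 699. Set against control, hypoxia had 8496 to 8952 called genes and hypoxia + rSRGN 8028 to 8535 when each library was left out. The share of calls that were higher with rSRGN was 72.6%, and 81.5% with DESeq2 and 62.6% without hypoxia replicate 3. In edgeR it was 80.7% with RLE scaling and 66.9% with library size alone. The cause was not tested. Of 662 values for the genes named from lists, 34 lost the call, all within 6 of 37 gene and comparison pairs, and 0 were reversed. Levels per length with library size alone moved by more than 1 SD in 3 of 30 cases, Vcan (29.8 CPM per kb) and Bgn (320.1) in control and Dcn (109.6) in hypoxia.

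The replicate number as a block gave 8550 called genes for hypoxia against control, 495 for hypoxia + rSRGN against hypoxia, and 6 and 1 called members. It changed no call of a member. Among named list genes it ended the call of Gpc2.

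The fitted log2 fold change of Srgn for hypoxia + rSRGN against control ran from -0.22 to 0.47 over the alternatives that kept it, so no direction can be given. Splice forms of Cd44 and Vcan, protein levels and sugar chains were not measured.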
